A study of Isostichopus badionotus with 6 samples.

Results

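The myosin heavy chain locus of the sea cucumber *Isostichopus badionotus* was examined in the body wall of 6 captive animals. The locus, Locus_371, belongs to a transcriptome assembled de novo from wild animals, and its members were all counted transcripts whose identifiers begin with that name. These were 5 transcripts of the 129776 in the count table, and the locus was 1 of 80132. The identifiers number 24 transcripts for the locus. The locus was singled out because its counts differed widely between the juveniles, so its levels are given as a description and were not tested.

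By the labels, 2 of the animals were adults adapted to captivity and 4 were juveniles in captivity. The design text of the series calls all of them farmed juveniles. Stage and the environment label differ together and cannot be told apart. The juveniles were taken to be the farmed animals of the study, offspring raised in tanks to about 2 years of age. For the adults the sources used here give no age, and no treatment is named for any animal. Each animal was gutted to leave the body wall, pieces of the wall were pooled within the animal, and poly(A) RNA was sequenced as stranded paired ends, so each animal is 1 replicate.

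Myosin heavy chain is the motor of the thick filament. Its heads bind actin and split ATP, which draws thin filaments past thick ones and shortens the muscle cell. The body wall of a sea cucumber holds circular muscle and longitudinal muscle bands beneath a thick collagenous dermis, with nerves and epithelia beside them. In such bulk tissue, fewer muscle cells and less myosin RNA per muscle cell cannot be told apart.

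Total counts were 23771295 and 26189571 in adults 5 and 6, and between 21714696 and 31742950 in the 4 juveniles. Levels are CPM, counts scaled to a common library size, on these totals corrected by TMM (trimmed mean of M-values, edgeR), whose factors were 0.973 and 0.586 in the adults and between 1.04 and 1.32 in the juveniles. Juvenile 2 stood apart from the other libraries. On the first principal component of log2 CPM it lay at 86.7, with the other 5 animals between -43.8 and 14.9. Results that rest on it are therefore also given without it.

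Of the 5 transcripts, only transcript 2 is paired with a name in the study's annotation, a match to a striated muscle myosin heavy chain of the crown-of-thorns starfish *Acanthaster planci*. It is also the longest, at 4019 nt. Transcript 17 is 2529 nt long, transcript 4 is 1112 nt, transcript 22 is 973 nt and transcript 19 is 479 nt. The authors counted only reads with a unique match, so a read from a stretch shared by several transcripts of the locus was not counted for any of them. The levels of single transcripts thus rest on the stretches that set them apart, whose lengths are not known here.

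The sum of the locus was high in both adults and in 2 of the juveniles, and low in the other 2 juveniles. It came to 6996 and 6255 CPM in adults 5 and 6, against 5605, 245, 975 and 5576 CPM in juveniles 1 to 4. The adults thus stood above every juvenile under this scaling, juveniles 1 and 4 lay close below them, and juveniles 2 and 3 lay far below. The mean was 6625 ± 525 CPM in adults (SD, n = 2) and 3100 ± 2891 CPM in juveniles (SD, n = 4), so the juvenile spread was nearly as large as the juvenile mean. The adult mean was 2.14 times the juvenile mean with TMM and 1.39 times with plain library totals, and between 1.68 times (without juvenile 2) and 2.94 times (without juvenile 4) when 1 animal was left out.

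The highest juvenile had 22.9 times the level of the lowest one, and 5.90 times when juvenile 2 was left out. Juvenile 2 held 3.69% of the adult mean and juvenile 3 held 14.7%, against 84.6% in juvenile 1 and 84.2% in juvenile 4. Juveniles 1 and 4, neighbours in the order of levels, did not differ beyond counting error. Their levels over that of juvenile 2 were 22.9 (95% interval 22.3 to 23.5) and 22.8 (22.2 to 23.4). These intervals, from the exact binomial method, and all others given here cover counting error only. They take each count as independent, so they are too narrow if both mates of a read pair were counted.

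The order of adults over juveniles depended on the scaling. As a share of all counts in its library, with no scaling, the locus took 0.681% and 0.367% in adults 5 and 6. It took 0.629%, 0.0255%, 0.110% and 0.737% in juveniles 1 to 4. On this measure adult 6 lay below juveniles 1 and 4, and the low place of juveniles 2 and 3 was unchanged. Ranked by counts among all loci, the locus was 17th and 27th in the adults, and 17th, 376th, 65th and 12th in juveniles 1 to 4.

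**Figure D1:**
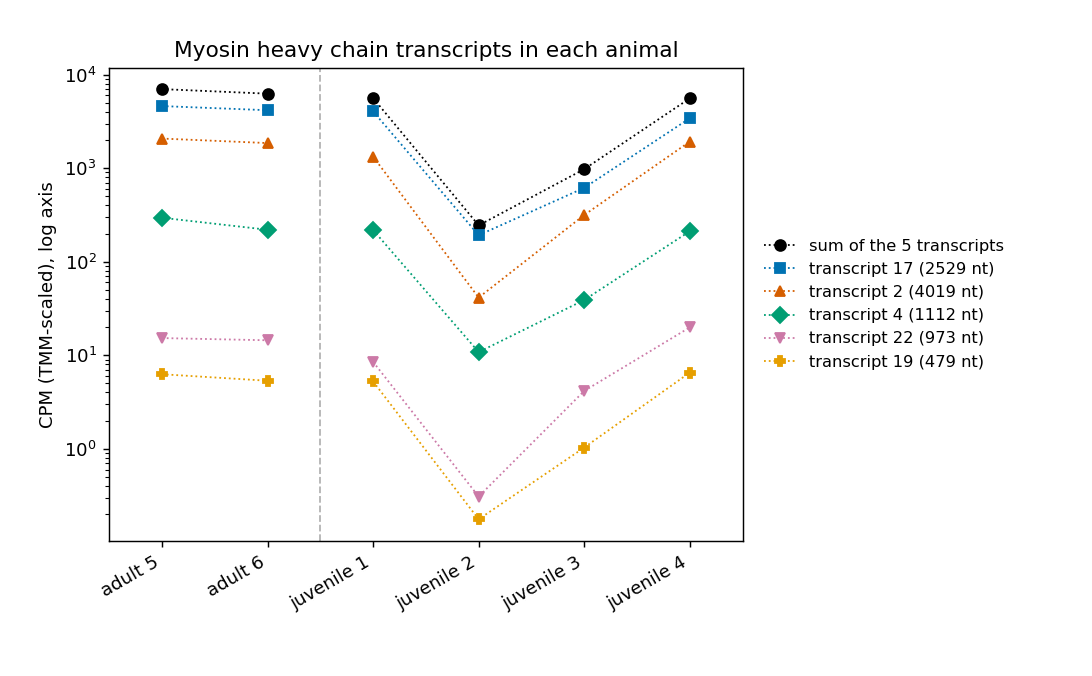
Levels of the 5 transcripts of the myosin heavy chain locus and of their sum, in TMM-scaled CPM on a log axis, with 1 point per animal, adults on the left and juveniles on the right of the dashed line. Dotted lines join the values of a transcript and imply no order of the animals, and all 6 series have their lowest point in juvenile 2, where the sum was 245 CPM, and their next lowest in juvenile 3.

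Transcript 17 carried most of the counts. It had 4609 and 4161 CPM in adults 5 and 6, against 4045, 192, 616 and 3415 CPM in juveniles 1 to 4. Both adults and juveniles 1 and 4 were high, juveniles 2 and 3 were low, and the adults lay above all juveniles with TMM scaling. Its raw counts were 106561 and 63888 in the adults and between 4350 and 144157 in the juveniles.

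Transcript 2, the one with the myosin heavy chain match, had 2071 and 1854 CPM in adults 5 and 6, against 1328, 41.3, 316 and 1923 CPM in juveniles 1 to 4. Here juvenile 4 stood between the adults, so the groups overlapped. Its raw counts were 47893 and 28471 in the adults and between 937 and 72119 in the juveniles.

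Transcript 4 had 295 and 220 CPM in adults 5 and 6, against 218, 10.8, 39.0 and 212 CPM in juveniles 1 to 4. Its order of animals was that of transcript 17. Adult 6 and juvenile 1 were neighbours in this order, and their levels over juvenile 2, 20.3 (17.8 to 23.2) and 20.2 (17.8 to 23.0), did not differ beyond counting error.

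Both remaining transcripts were rare. Transcript 22 had 15.3 and 14.5 CPM in adults 5 and 6, against 8.50, 0.309, 4.16 and 19.9 CPM in juveniles 1 to 4. Transcript 19 had 6.27 and 5.34 CPM in adults 5 and 6, against 5.25, 0.176, 1.03 and 6.53 CPM in juveniles 1 to 4. In both of them juvenile 4 was the highest animal and the groups overlapped. The level of juvenile 2 rested on 7 counts of transcript 22 and on 4 counts of transcript 19.

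Per kb of transcript length, transcript 17 stood at 1734 CPM per kb in adults and 817 CPM per kb in juveniles, and transcript 2 at 488 CPM per kb in adults and 224 in juveniles. Transcript 4 had means of 231 CPM per kb in adults and 108 in juveniles. Transcripts 22 and 19 were both under 16 CPM per kb in the adult means, at 15.3 and 12.1, and had 8.44 and 6.78 CPM per kb in juveniles. The order of the transcripts by level per full length was thus the same in both stages. Only reads from unshared stretches of unknown length were counted, so this order does not rank how abundant the transcripts were.

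All 5 transcripts shared the spread between animals. Each of them was lowest in juvenile 2 and next lowest in juvenile 3, and each was high in both adults and in juvenile 4. Of all 17871 transcripts with a mean of 3 CPM or more, 25.1% were lowest in juvenile 2. The locus was chosen with the level of this animal in view, so nothing is read from the difference between the members and that share. The result was the same for all 5 transcripts with upper quartile factors, DESeq2 size factors and plain library totals.

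The size of the difference between juveniles was not the same for all. The level of juvenile 4 over that of juvenile 2 was 17.8 (95% interval 17.3 to 18.3) for transcript 17 and 19.6 (17.2 to 22.3) for transcript 4. For transcript 2 it was 46.5 (43.6 to 49.7), an interval that lies above those of both. For the rare transcripts it was 64.3 (31.1 to 161) for transcript 22 and 37.0 (14.3 to 137) for transcript 19, and the width of these intervals comes from the few counts in juvenile 2. Transcripts 17 and 4 did not differ in this ratio beyond counting error.

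The standard deviation of log2 CPM over the 4 juveniles, with a prior count of 2, lay between 2.09 (transcript 4) and 2.51 (transcript 2). The median over the 9979 transcripts that passed the expression filter was 0.502. The filter asked for 3 CPM or more in both adults and in 3 or more juveniles. It was passed by 4 of the 5 members, and transcript 19 failed it through its low levels in juveniles 2 and 3. The Pearson correlation of each transcript's log2 level with that of the rest of the locus lay between 0.956 (transcript 22) and 0.999 (transcript 4) over the 6 animals, and between 0.874 and 0.996 over the 5 animals without juvenile 2. These points share their libraries and their scaling, so the values are a description only.

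The division of the locus among its transcripts was not used to choose it. In adults 5 and 6, transcript 17 took 65.9% and 66.5% of the locus' counts and transcript 2 took 29.6% in each. In juveniles 1 to 4, transcript 17 took 72.2%, 78.5%, 63.1% and 61.2%. The share of transcript 2 in juveniles 1 to 4 was 23.7%, 16.9%, 32.3% and 34.5%. The adults thus lay within the juvenile range for both transcripts and nearly coincided with each other, while the 95% Wilson intervals of the 4 juveniles did not overlap.

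The count of transcript 2 per count of transcript 17 sums up this division. It was 0.449 (0.445 to 0.454) and 0.446 (0.439 to 0.452) in adults 5 and 6. It was 0.328 (0.325 to 0.332), 0.215 (0.201 to 0.231), 0.512 (0.501 to 0.525) and 0.563 (0.558 to 0.568) in juveniles 1 to 4. The ratio did not follow the level of the locus among the juveniles. Juvenile 3, with a low locus sum, had a ratio close to that of juvenile 4, with a high one, and juvenile 1, with a high sum, had the next lowest ratio after juvenile 2.

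Transcript 4 took 4.22% and 3.51% in adults 5 and 6 and between 3.80% and 4.42% in the juveniles, the narrowest relative range among juveniles of the 5. Transcript 22 took 0.218% and 0.231% in adults 5 and 6, against 0.152%, 0.126%, 0.426% and 0.356% in juveniles 1 to 4. As with transcript 2, its share was greater in juveniles 3 and 4 than in juveniles 1 and 2. Transcript 19 took 0.0896% and 0.0854% in adults 5 and 6 and between 0.0722% and 0.117% in the juveniles, and the Wilson intervals of all 6 animals overlapped.

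**Figure D2:**
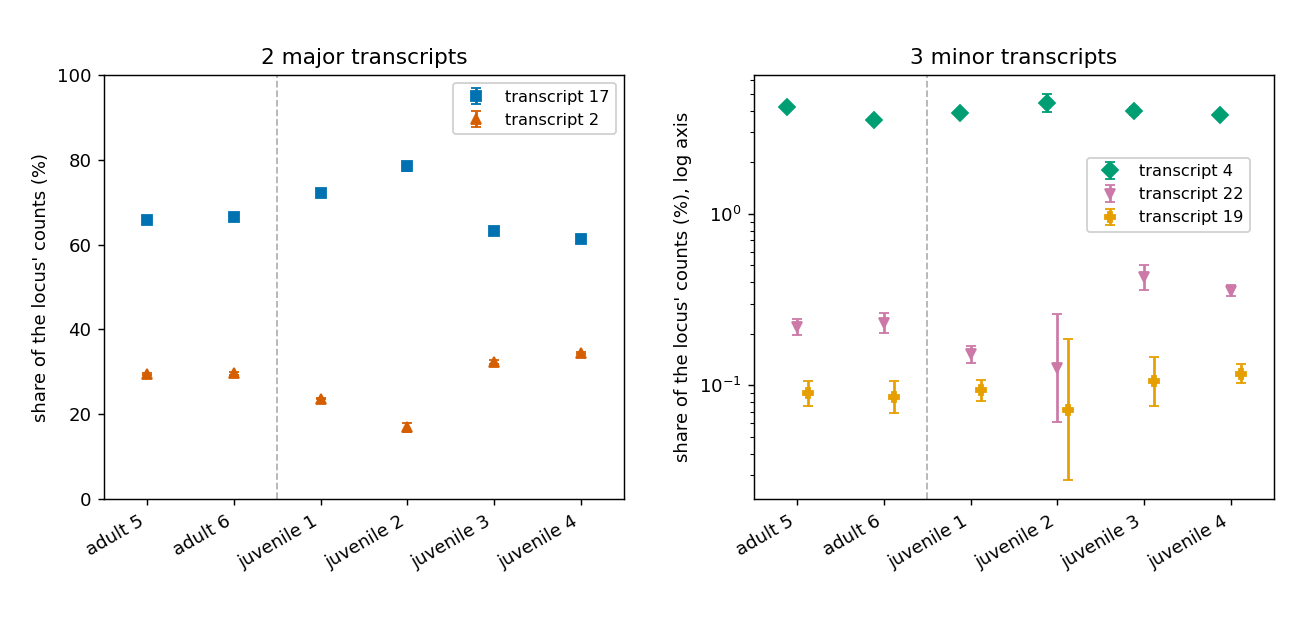
Share of the locus' counts taken by each transcript in each animal, in percent, with 95% Wilson intervals that cover counting error only, and with adults left of the dashed line. The linear panel shows transcripts 17 and 2, whose shares in the adults (65.9% and 66.5%, and 29.6% in each) fall inside the juvenile ranges, and the log panel shows transcripts 4, 22 and 19.

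Whether this division differed by stage was tested with the transcript usage test of edgeR (diffSpliceDGE, quasi-likelihood), which sets the fold change of a transcript against that of its locus. Over all loci with several tested transcripts, 0 of 3646 transcripts passed an adjusted p of 0.05 (0%), and 39 (1.07%) had an unadjusted p under 0.05. Of the 4 members tested, 0 passed at either threshold. The difference in log2 fold change, adult over juvenile, was -0.01 for transcript 17, 0.03 for transcript 2, 0.01 for transcript 4 and -0.24 for transcript 22, with unadjusted p between 0.832 and 0.997 and adjusted p of 1.00 each by that test with Benjamini-Hochberg adjustment. No difference in usage between adults and juveniles was thus detectable with 2 adults and 4 juveniles, which does not show that usage was equal.

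Other transcripts of contractile and muscle proteins were then set beside the locus. The list holds 18 transcripts outside the locus, taken by name from the transcripts that the study annotated among those differing between wild and farmed animals. The juveniles were part of that choice, so the list is not independent evidence of direction. All 18 were tested between adults and juveniles with edgeR's quasi-likelihood test across 9979 transcripts, and 0 of 18 were called, where 0 of 9979 (0%) were called in all. At an unadjusted p under 0.05 the counts were 6 of 18, each higher in adults, and 828 of 9979 (8.3%), of which 397 (3.98%) were higher in adults. Of the 6, 5 were spectrin alpha and ankyrin transcripts from 2 loci, which are not particular to muscle, and the other was talin-2. The count was 3 of 18 with library totals and 9 of 18 without juvenile 4. DESeq2 called 188 transcripts in all and 3 of the list, and edgeR's exact test 11 in all and 3 of the list. Part of the list had no adjusted p in DESeq2 and so could not be called by it.

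The median log2 fold change of the list, adult over juvenile, was 1.00, and 17 of 18 values were above 0. Over all tested transcripts the median was -0.11, and 42.5% were above 0. With plain library totals both medians shifted, to 0.41 for the list and -0.67 for all tested transcripts, and 11 of 18 values were above 0. Relative to the median of all tested transcripts, the list stood at 1.12 with TMM and at 1.08 with library totals, and 17 of 18 members lay above that median under both. In 10 of 18 transcripts both adults lay above all juveniles with TMM, where 8.55% of all tested transcripts did so. With library totals it was 3 of 18, where 1.88% of all tested transcripts did so.

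The members of the list differed in how closely they varied with the locus over the 6 animals, and their order rested in part on juvenile 2. The Pearson correlation of log2 CPM with the locus sum over the 6 animals was above 0.8 in 7 of 18 transcripts, while 6.19% of all tested transcripts were above that value. The 7 values lay between 0.819 and 0.989, and between 0.338 and 0.983 without juvenile 2. The list's other 11 transcripts had values between -0.92 and 0.69, and between -0.77 and 0.94 without juvenile 2. Without that animal 4 of 18 transcripts were above 0.8 (4.15% of all tested transcripts), and 3 of these were among the 7. Juvenile 2 was the lowest animal in 9 of the 18, and in 25.1% of the 17871 transcripts with a mean of 3 CPM or more. Among the 9, the filamin matches share a locus, as do the talin-2 transcripts, so the 9 are not independent.

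The calcium pump SERCA, which returns calcium to the sarcoplasmic reticulum and so lets muscle relax, was among the 7. Transcript 9 of locus 512 had 89.3 and 75.7 CPM in adults 5 and 6, against 58.2, 11.7, 29.8 and 73.6 CPM in juveniles 1 to 4. Juveniles 2 and 3 were again the lowest, and the log2 fold change of 0.93 did not pass the test (adjusted p = 0.646, edgeR).

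Filamins cross-link actin filaments and, in muscle, gather at the Z-disc and the cell membrane. The filamin-C match, transcript 2 of locus 560, had 531 and 515 CPM in adults 5 and 6, against 237, 29.4, 90.4 and 394 CPM in juveniles 1 to 4. The filamin A match, transcript 18 of the same locus, had 116 and 120 CPM in adults 5 and 6, against 75.3, 15.7, 17.8 and 79.5 CPM in juveniles 1 to 4. With TMM scaling both had the adults above all juveniles and juvenile 2 at the bottom, as transcript 17 of the myosin locus did. Their log2 fold changes of 1.48 and 1.33 had adjusted p of 0.584 and 0.572 in edgeR's test. They come from 1 locus and are not independent of each other.

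Smoothelin-like 1, a regulator of smooth muscle contraction known from the mouse, showed the same low animals. Transcript 17 of locus 3117 had 20.8 and 11.7 CPM in adults 5 and 6, against 23.3, 0.927, 7.69 and 22.9 CPM in juveniles 1 to 4. Juveniles 1 and 4 lay above both adults here. Its log2 fold change of 0.24 (adjusted p = 0.951, edgeR) was -0.11 without juvenile 2.

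Talin-2 couples integrins at the cell membrane to actin. Its transcripts 17 and 20 of locus 2678 had 16.3 and 18.8 CPM and 12.6 and 10.4 CPM in adults 5 and 6. In juveniles they ranged between 3.75 and 12.2 CPM and between 1.72 and 8.91 CPM, with the lowest value in juvenile 2 for both. Leiomodin 3, a nucleator of actin filaments in muscle, had 10.1 and 10.6 CPM in the adults and between 4.68 and 12.9 CPM in the juveniles. Its lowest animal was juvenile 2 as well, but the range among juveniles was far narrower than that of the myosin locus.

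The actins, which form the thin filaments on which myosin pulls, were not low in juvenile 2. The actin transcript with the highest level of the list's 4, transcript 49 of locus 688, had 152 and 190 CPM in adults 5 and 6, against 111, 157, 76.1 and 96.5 CPM in juveniles 1 to 4. Juvenile 2 was the highest juvenile there, and the correlation with the locus sum was 0.09 over 6 animals and 0.74 without juvenile 2. The cardiac alpha actin match, transcript 4 of locus 7533, had 19.5 and 15.8 CPM in the adults, against 14.4, 30.4, 23.8 and 16.6 CPM in juveniles 1 to 4, which is highest where the myosin locus was lowest (r = -0.92 over 6 animals, -0.77 without juvenile 2). The muscle actin match had 29.4 and 22.7 CPM in the adults and between 16.4 and 26.5 CPM in the juveniles, and the actin gene fragment 8.26 and 6.90 CPM in the adults and between 4.15 and 9.88 CPM in the juveniles. In all 4 of them juvenile 2 was the highest juvenile. Actin genes are close copies of each other and are also used outside muscle, so reads could be lost or split among them.

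Alpha-actinin-2, which anchors thin filaments in the Z-disc, was as high in juvenile 2 as in juvenile 1 and lowest in juvenile 3. It had 76.9 and 57.6 CPM in adults 5 and 6, against 71.6, 71.1, 28.3 and 52.3 CPM in juveniles 1 to 4. Without juvenile 2 its correlation with the locus sum was 0.94, against 0.23 over all 6 animals. Calpain 3, a protease of skeletal muscle known from mammals, had 7.61 and 11.8 CPM in the adults and between 5.21 and 13.2 CPM in the juveniles, with the highest value in juvenile 3.

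Spectrin alpha and ankyrin form the skeleton beneath the cell membrane and are not particular to muscle. The 3 spectrin alpha transcripts of locus 181 had the highest fold changes of the list. Transcript 22 had 30.8 and 49.9 CPM in adults 5 and 6, against 6.82, 4.72, 8.55 and 13.1 CPM in juveniles 1 to 4. Transcript 15 had 28.0 and 32.5 CPM in the adults and between 6.22 and 9.04 CPM in the juveniles. In these transcripts both adults lay above all juveniles with TMM scaling, and the range among juveniles was narrower than in the myosin locus, though wider in transcript 22 than in transcript 15. The log2 fold changes of transcripts 11, 15 and 22 were 1.64, 2.00 and 2.28, with unadjusted p of 5.5e-04, 2.2e-04 and 0.00104 and an adjusted p of 0.560 each in edgeR's quasi-likelihood test. The exact test of edgeR called all 3 of them. DESeq2 called transcripts 15 and 22 and gave transcript 11 no adjusted p.

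The 2 ankyrin transcripts of locus 421 likewise had both adults above all juveniles with TMM scaling. The ankyrin-2 match had 36.8 and 49.4 CPM in the adults and between 14.5 and 22.7 CPM in the juveniles. The ankyrin-3 match had 10.5 and 12.6 CPM in the adults and between 4.30 and 5.95 CPM in the juveniles. Their log2 fold changes of 1.22 and 1.25 each had an adjusted p of 0.560 in edgeR's quasi-likelihood test, and juvenile 2 was the lowest animal in neither. DESeq2 called the ankyrin-2 match (log2 fold change 1.30, adjusted p = 0.0155) and gave the ankyrin-3 match no adjusted p.

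**Figure D3:**
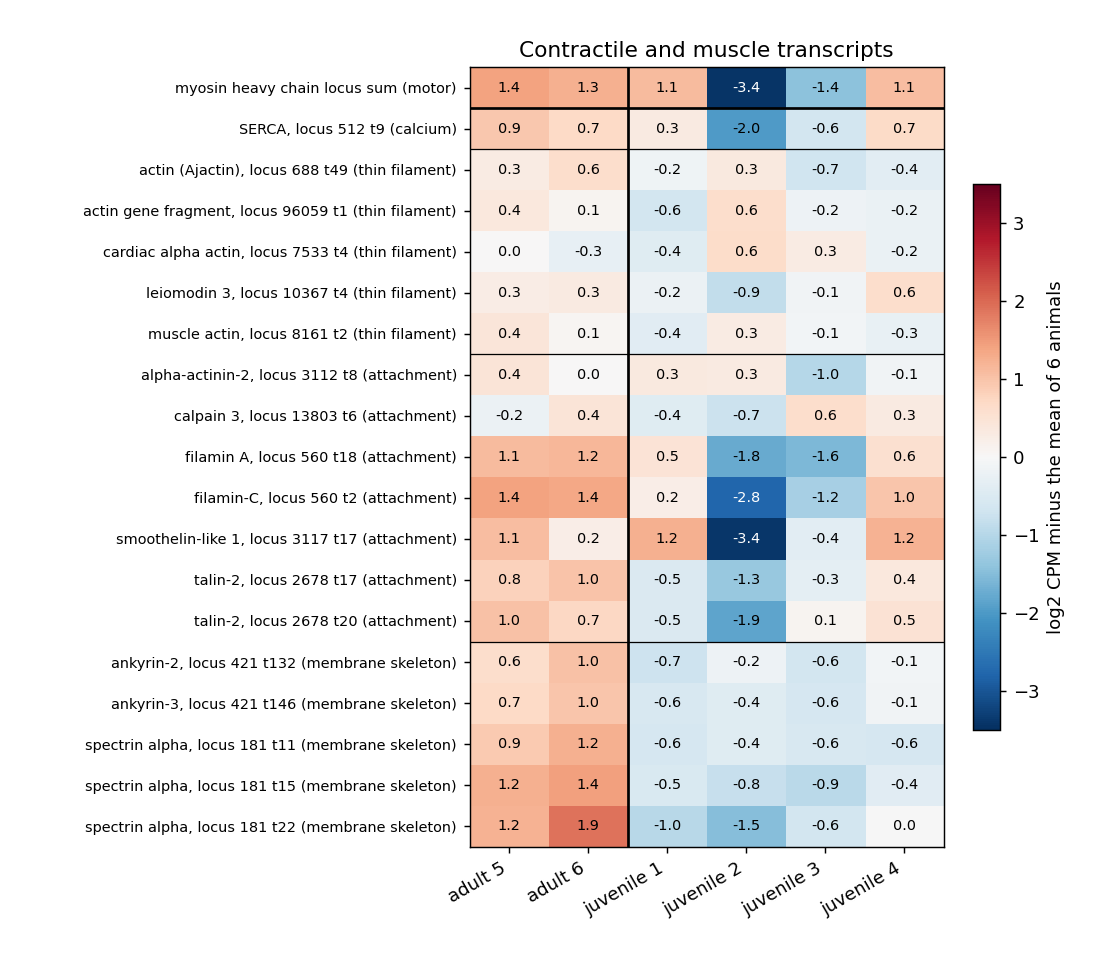
Heat map of the log2 CPM of each animal minus the mean of the 6 animals, for the sum of the myosin heavy chain locus and the 18 other contractile and muscle transcripts, grouped by role, with adults in the left columns (t stands for transcript). SERCA, filamins, smoothelin-like 1 and talin-2 are low in juvenile 2 as the myosin locus is, the 4 actin transcripts are not, and spectrin alpha and ankyrin are higher in both adults than in any juvenile with TMM scaling.

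Markers of other tissues of the body wall were summed in the same libraries. The muscle list without the locus came to 1208 and 1226 CPM in adults 5 and 6, against 674, 410, 373 and 859 CPM in juveniles 1 to 4. Its lowest animals were juveniles 3 and 2, while the locus was lowest in juvenile 2, and the range among juveniles was much smaller. The low place of juvenile 2 among the juveniles rested on the filamin-C and filamin A matches of locus 560. These had 29.4 and 15.7 CPM in juvenile 2, against 394 and 79.5 CPM in juvenile 4. Without them juvenile 2 would not be low among the juveniles in this sum. The 8 collagen transcripts, proteins of the dermis, came to 369 and 480 CPM in the adults, against 171, 126, 253 and 59.4 CPM in juveniles 1 to 4. Collagens were thus lowest in juvenile 4, which was among the highest in myosin.

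The 5 motile cilia transcripts, parts of the axoneme, came to 20.0 and 15.3 CPM in adults 5 and 6, against 34.7, 52.6, 27.0 and 18.1 CPM in juveniles 1 to 4. Their sum was highest in juvenile 2, where the myosin locus was lowest. Dynein heavy chain 10 made up most of that sum, with 42.0 CPM in juvenile 2. CCDC170 was also highest there, while CCDC63, enkurin and PF16 were highest in juvenile 1, and CCDC63 was lowest in juvenile 2, at 0.397 CPM. The 5 neural transcripts came to 125 and 135 CPM in the adults and between 69.3 and 108 CPM in the juveniles, with juvenile 1 the lowest. That low place rested on neural alpha2 tubulin, with 14.8 CPM in juvenile 1 against 46.1 CPM in juvenile 2. PTPRN2 and glycine transporter 1 were lowest in juvenile 2, at 16.4 and 14.6 CPM. Synaptogyrin, like the tubulin, was lowest in juvenile 1, and ELAV in adult 6. No transcript of these lists was at 0 in any animal, and the lowest values were 0.168 CPM for CCDC170 of the cilia list and 0.337 CPM for synaptogyrin of the neural list, both in juvenile 1. The part of these tissues in the levels of the locus was not tested.

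**Figure D4:**
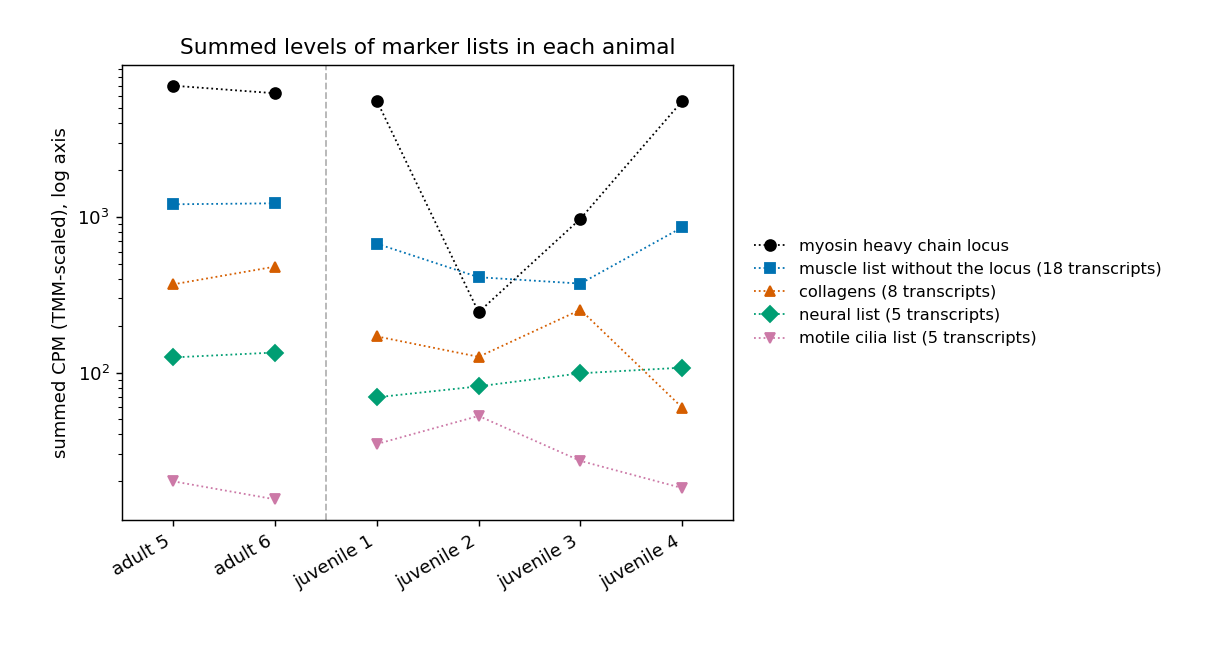
Summed TMM-scaled CPM of the myosin heavy chain locus and of the marker lists for muscle, collagen, nerve and motile cilia in each animal, on a log axis, with adults left of the dashed line (dotted lines imply no order). The locus ranges between 245 and 5605 CPM among juveniles, while the sum of the other muscle transcripts ranges between 373 and 859 CPM.

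The loci whose summed level was most like that of the myosin locus were ranked by Pearson's r of log2 CPM over the 6 animals, among 7374 loci with a mean of 10 CPM or more. Of these, 65 had r above 0.95. The 5 named loci with the highest r, among 225 named ones, were SERCA (locus 512, r = 0.993), filamin (locus 560, 0.985), a pleiotropic regulator 1-like match (locus 947, 0.971), smoothelin-like 1 (locus 3117, 0.964) and talin-2 (locus 2678, 0.939). Pleiotropic regulator 1 is a component of the spliceosome, and the other 4 belong to the muscle list. Without juvenile 2 the r values were 0.987, 0.976, 0.915, 0.871 and 0.90. Among all 7374 loci the 5 ranked 6th, 14th, 38th, 46th and 91st, and every locus ranked above SERCA was unnamed. Names cover only transcripts that the study annotated among those differing between wild and farmed animals. The share of muscle loci among the 225 named ones was not counted.

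The loci differed in how low they were in juvenile 2. The filamin locus had 1041 and 1042 CPM in adults 5 and 6, against 611, 80.7, 170 and 739 CPM in juveniles 1 to 4. That is 7.75% of the adult mean in juvenile 2, where the myosin locus had 3.69%. The SERCA locus had 166 and 152 CPM in the adults, against 126, 36.6, 59.5 and 145 CPM in juveniles 1 to 4, or 23.0% of the adult mean in juvenile 2. Talin-2 and the pleiotropic regulator 1-like locus stood at 40.3% and 61.2% of the adult mean in that animal, so a high r went with a much smaller range.

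Among loci without a name, the 3 with the highest r were 19110 (0.998), 58 (0.998) and 19531 (0.997). Locus 19110 had 320 and 309 CPM in adults 5 and 6, against 326, 11.4, 46.7 and 257 CPM in juveniles 1 to 4. Its level in juvenile 2 was 3.63% of the adult mean, and that of locus 19531 was 3.64%, both close to the 3.69% of the myosin locus. Locus 58 had 100.4 and 90.0 CPM in the adults, against 73.5, 9.31, 26.6 and 83.4 CPM in juveniles 1 to 4, and stood at 9.78% in juvenile 2.

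**Figure D5:**
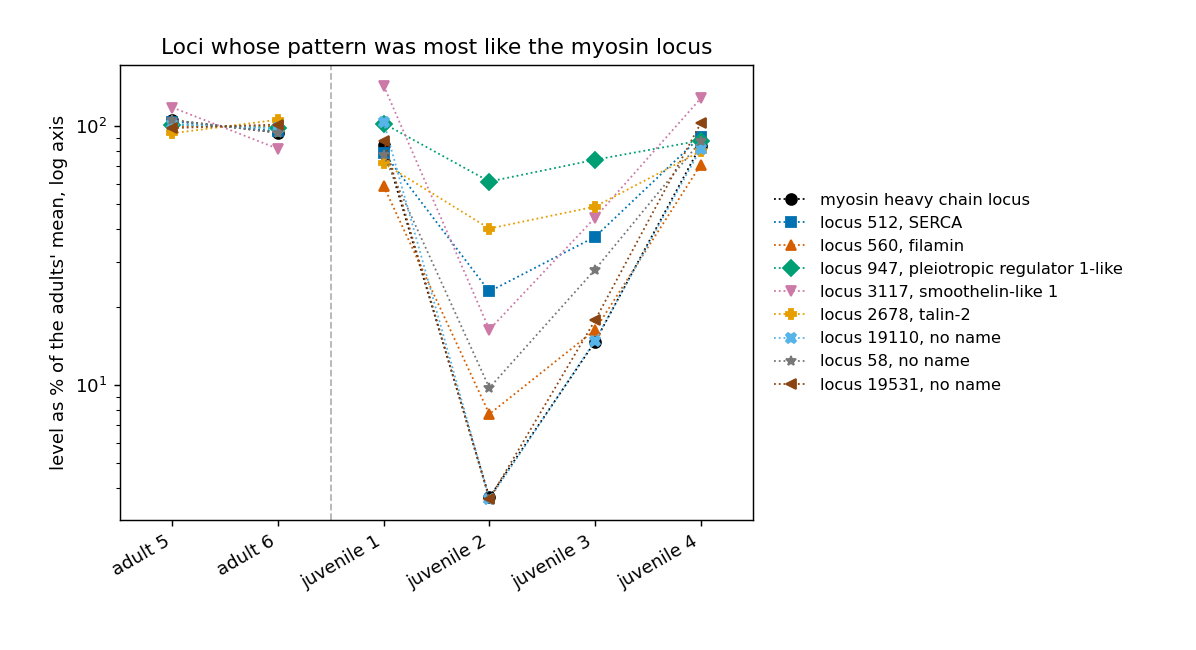
Level of the myosin heavy chain locus and of 8 loci with a high correlation to it (the 5 named and the 3 unnamed loci with the highest r) in each animal, as a percentage of the mean of the 2 adults on a log axis, with adults left of the dashed line (dotted lines imply no order). In juvenile 2 the values run between 3.63% (locus 19110) and 61.2% (locus 947), with the myosin locus at 3.69%.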

How the data were processed

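The deposited values are raw counts of uniquely matching reads per assembled transcript. Each animal's total lies above the number of uniquely and concordantly aligned pairs that the paper gives for any farmed animal. The sources used here do not state whether the mates of a pair were counted singly. The authors aligned stranded read pairs to a transcriptome assembled from wild animals, using HISAT2 with strand setting FR, and scaled and tested counts with edgeR 3.20.9. The sources used here give neither the version of HISAT2 nor the counting program. Names come from the study's annotation of transcripts that differed between wild and farmed animals. No wild library and no sequence was used here.

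Computation used R 4.3.3, edgeR 4.0.16, limma 3.58.1 and DESeq2 1.42.0. TMM factors were computed on the 9979 transcripts with 3 CPM or more in both adults and in 3 or more juveniles. Adults were set against juveniles without covariates, with Benjamini-Hochberg adjustment over all tested transcripts at 0.05. Totals of 21714696 to 31742950 leave counting error small for the transcripts of the locus other than 19 and 22. The lowest values of the lists also rest on few counts. Among them are CCDC170 in juvenile 1 (0.168 CPM), and CCDC63 and smoothelin-like 1 in juvenile 2 (0.397 and 0.927 CPM). The labels do not say whether animals shared a tank or parents. The tests took the animals as independent, so the p-values may be too small if animals of a group shared either. The tests were tried on simulated counts, but the outcome is not given here and nothing rests on it.

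The members and lists were chosen with earlier results of these data known. Named were all transcripts of the locus with a mean of 3 CPM, all tested transcripts of the muscle list, and the 5 named and 3 unnamed loci with the highest r. Alternatives covered scaling, filter, tool, prior count, transcript length and leaving out each animal.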

Additional observations from a re-analysis of the deposited data

Results flagged for a closer look

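Among 29 sets of 4 juvenile values (levels and shares of the members of the locus, and levels of the muscle list), 1 held a value far from the others by Dixon's ratio, past its 95% critical value. Chance flags about 1 in 20 such sets. It was the level of spectrin alpha, locus 181 transcript 11, at 4.59 CPM in juvenile 2, with the other 3 juveniles between 4.13 and 4.19 CPM. The adults had 11.8 and 14.7 CPM. No level or share of the 5 myosin heavy chain transcripts was past that ratio. For the levels nothing is read from this. The locus was chosen for its spread between juveniles, and juveniles 2 and 3 were low together, so the ratio could not single out either.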

How the results depend on the processing

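No paired analysis was possible because the titles number the animals 1 to 6 and the groups share no number. With library totals the adult mean of the locus was 5236 CPM, the median log2 fold change of the muscle list was 0.41, and 6 of its transcripts turned below 0: muscle actin (-0.15), actin gene fragment (-0.24), leiomodin 3 (-0.29), alpha-actinin-2 (-0.24), smoothelin-like 1 (-0.29) and calpain 3 (-0.55). The transcripts called between adults and juveniles were 7 with no filter, 188 with DESeq2 and 11 with edgeR's exact test, and DESeq2 and the exact test called 3 each of the muscle list. Part of that list had no adjusted p in DESeq2. Usage calls over all loci were 6 with the filter of filterByExpr.

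Leaving out 1 animal at a time, the adult mean of the locus lay between 6289 and 8013 CPM (8013 CPM without adult 6), and the highest over the lowest juvenile between 5.90 (without juvenile 2) and 22.9. The log2 fold change lay between -0.18 and 0.40 for calpain 3, -0.43 and 0.00106 for cardiac alpha actin, and -0.24 and 0.65 for smoothelin-like 1. The usage difference lay between -0.10 and 0.091 for transcript 17, -0.18 and 0.26 for transcript 2, -0.14 and 0.12 for transcript 4, and -0.68 and 0.24 for transcript 22, and called none of them, while over all loci it called up to 3. The cause of these changes was not tested. Of 234 fold changes of muscle transcripts under alternatives, 222 kept their direction. With 2 adults and 1 library that stands apart, small differences between stages are out of reach.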
